A study of Mus musculus with 15 samples.

Results

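Testicular macrophages were followed in single-cell RNA-seq of dissociated DBA/2J mouse testis. They were selected on measured values, as the cells with at least 1 unique molecular identifier (UMI, the count of 1 captured RNA molecule) from at least 3 of the 5 genes Pf4, Lyz2, C1qa, C1qb and Cd74. Barcodes entered only with 500 or more genes, 1000 or more UMIs and less than 30% of UMIs from mitochondrial genes. Of 76494 such cells in 15 libraries, 335 met the rule, or 0.438% (exact Clopper-Pearson 95% interval 0.392 to 0.487%, counting error only). The 15 libraries came from 15 male mice, 3 in each of 5 groups. JQ1, a small molecule that competes for the acetyl-lysine pockets of BRDT and the other BET proteins, was injected intraperitoneally at 50 mg/kg each day for 3 wk in the groups T and R. Testes were collected at the end of dosing in T (10 wk of age) and after a further 6 wk in R (16 wk of age). The vehicle groups VC-T (10 wk) and VC-R (16 wk) were collected beside them, and the untreated group UC was 15 wk old. UC therefore differed from T in age as well as in treatment. All mice were of 1 inbred strain, and each library came from 1 testis of 1 mouse.

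Macrophages are the main immune cells of the testis. They lie in the interstitium beside the Leydig cells and on the wall of the seminiferous tubules, and they take up dying cells, present antigen and exchange signals with steroid-producing cells. The interstitial kind is known for Csf1r, the receptor for colony-stimulating factor 1, together with the mannose receptor Mrc1 and the folate receptor Folr2, and the kind on the tubule wall for MHC class II, the molecules that show peptides to helper T cells. The testes here were digested with collagenase, tubule fragments were spun down at low speed, and the supernatant was thrown away before the trypsin step. Cells of the interstitium were thus recovered only as far as they stayed with the tubules, and shares of cells are shares of what was recovered. The loss was not measured.

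The 3 C1q genes, which encode the chains of the first component of complement, lie side by side on the minus strand of chromosome 4. In GENCODE vM21 (GRCm38/mm10), C1qb runs from 136880129 to 136886187, C1qc from 136889804 to 136893065 and C1qa from 136895917 to 136898803. The start regions of C1qb and C1qc are shown because these neighbours behaved differently outside the macrophages, and that of the chemokine gene Ccl8 because its level differed most between libraries among the leading genes. Each run holds 300 bases from RefSeq (GRCm38.p6), 250 before and 50 after the start, read 5′ to 3′ on the gene's strand, at chr4:136886151-136886450 (minus) for C1qb, chr4:136892865-136893164 (minus) for C1qc and chr11:82114935-82115234 (plus) for Ccl8. Capitals mark GAGGAA or its reverse complement TTCCTC, the core of the motif of PU.1 (gene Spi1), a transcription factor of macrophages.
C1qb: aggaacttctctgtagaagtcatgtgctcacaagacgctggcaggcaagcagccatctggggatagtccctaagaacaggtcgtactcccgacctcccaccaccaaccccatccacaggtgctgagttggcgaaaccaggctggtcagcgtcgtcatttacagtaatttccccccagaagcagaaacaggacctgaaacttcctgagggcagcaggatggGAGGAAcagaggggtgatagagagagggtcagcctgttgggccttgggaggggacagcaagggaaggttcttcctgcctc
C1qc: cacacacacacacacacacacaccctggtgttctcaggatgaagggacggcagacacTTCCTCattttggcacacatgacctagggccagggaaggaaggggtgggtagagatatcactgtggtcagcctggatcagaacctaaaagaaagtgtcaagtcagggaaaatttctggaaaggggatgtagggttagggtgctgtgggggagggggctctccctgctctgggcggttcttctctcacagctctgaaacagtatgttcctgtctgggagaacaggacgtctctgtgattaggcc
Ccl8: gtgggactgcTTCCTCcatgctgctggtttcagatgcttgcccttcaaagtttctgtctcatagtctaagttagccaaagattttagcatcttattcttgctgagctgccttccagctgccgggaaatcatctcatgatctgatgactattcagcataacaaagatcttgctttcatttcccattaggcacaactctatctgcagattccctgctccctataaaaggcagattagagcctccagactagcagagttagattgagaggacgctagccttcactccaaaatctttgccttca
Each of these start regions held 1 match, on the forward strand in C1qb and on the reverse strand in C1qc and Ccl8. The same letters stood in 28.3% of the 32851 start regions of that length in the table. Of the 15 leading genes named below, 9 had an entry in the table and 8 of these held a match, against 31.3% of all 27025 genes. A match of letters is a description and not a bound site.

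The macrophages were spread very unevenly over the libraries. R held 257 of the 335 (76.7%), UC 30, VC-T 24, VC-R 22 and T 2. In R the libraries gave 63, 104 and 90 macrophages, or 0.896%, 1.35% and 0.668% of kept cells. In UC they gave 15, 4 and 11 (0.457%, 0.129% and 0.247%), and in VC-R 11, 10 and 1 (0.218%, 0.264% and 0.0343%). VC-T gave 0, 18 and 6 (0%, 0.475% and 0.163%), and T gave 2, 0 and 0 (0.0342%, 0% and 0%). The 0 of 3992 cells in T 2 and 0 of 2569 in T 3 allow shares of up to 0.0752% and 0.117%, and the 0 of 5818 in VC-T 1 up to 0.0516%. Every R library lay above every library of the other 4 groups.

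**Figure D1:**
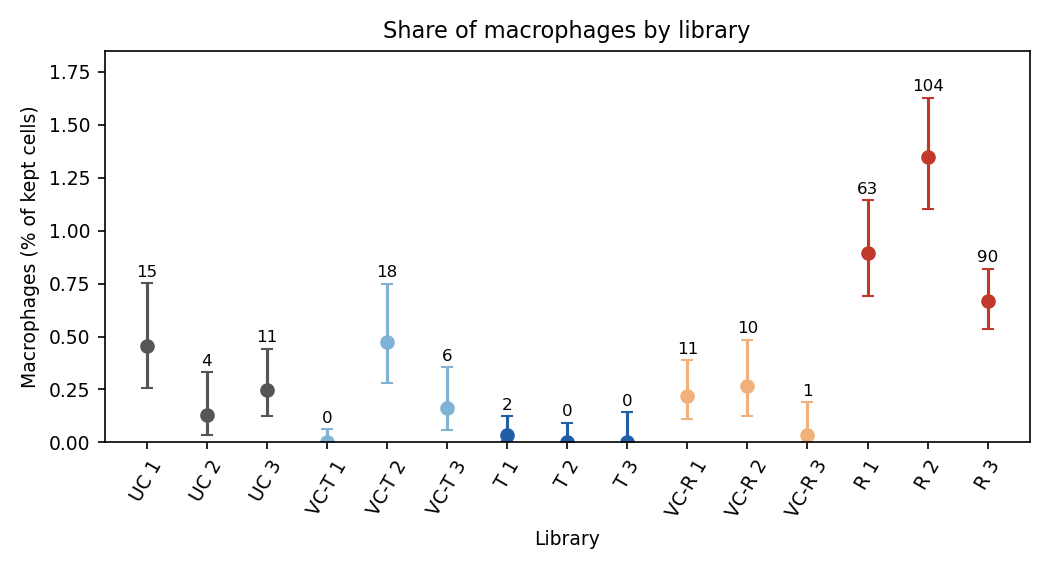
Share of macrophages among kept cells (y axis, percent) in each of the 15 libraries (x axis). Points are shares, bars are exact 95% intervals that cover counting error only, and numbers above the bars are macrophage counts; the 3 R libraries, from 0.668% to 1.35%, lie above all others, and 3 libraries hold no macrophage.

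The R libraries averaged 0.970% ± 0.345 (SD, n = 3), which was 4.31 times the 0.225% ± 0.143 (SD, n = 6) of the pooled UC and VC-R libraries. The difference of 0.745 percentage points gave p = 0.0238 in an exact two-sided permutation test over libraries, which is the smallest p that 3 libraries against 6 allow. After Benjamini-Hochberg adjustment over the 5 comparisons of groups, p was 0.119, so it did not pass 0.05. A test of the R effect against the T effect was run apart from these and is not in the adjustment. Against VC-R alone, R was higher by 0.798 percentage points with p = 0.1 in the exact permutation test, the smallest that 3 against 3 can give.

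Cells meeting marker rules for Sertoli and Leydig cells also took higher shares in R than in UC and VC-R. Cells with at least 3 of 8 markers of Sertoli cells, the nurse cells inside the tubule, made up 9.12 to 15.3% of kept cells in R and 1.75 to 4.30% in UC and VC-R. This rule counted 285 cells in UC, 604 in VC-T and 134 in T. These are more than the Sertoli cells that the paper shows for its untreated, vehicle-treated and JQ1-treated libraries. The counts here may thus include other cells that carry Sertoli transcripts, which was not tested. Cells with at least 3 of 5 Leydig cell markers, the steroid-producing neighbours of the macrophages, made up 0.455 to 0.757% in R and 0.106 to 0.315% in UC and VC-R. In T and VC-T these shares did not follow the macrophages throughout. VC-T 2 had 10.3% Sertoli and 0.554% Leydig cells with 0.475% macrophages, and VC-T 3 had 0.515% Leydig cells with 0.163%. T 3 had 0.662% Leydig cells and no macrophage. T 1, T 2 and VC-T 1 lay below the R ranges for both rules. Set against Sertoli cells, macrophages numbered 9.83, 14.6 and 4.37 per 100 in the R libraries, 25, 5.26 and 7.38 in UC and 7.91, 6.13 and 1.96 in VC-R, and these ranges overlap. Set against Leydig cells, they numbered 196.9, 182.5 and 88.2 per 100 in R, 150, 80 and 78.6 in UC and 73.3, 250 and 16.7 in VC-R, and these overlap too. The Leydig cells counted were 32, 57 and 102 in R, 10, 5 and 14 in UC and 15, 4 and 6 in VC-R. The 250 of VC-R 2 thus rests on 10 macrophages and 4 Leydig cells, and the 150 of UC 1 on 15 and 10. In UC 1, 10 of the 15 held under 0.5% of UMIs from macrophage identity genes, as described below. The other control libraries lay at 16.7 to 80 and rest on small counts too. The 80 of UC 2 rests on 4 macrophages and 5 Leydig cells, and the 16.7 of VC-R 3 on 1 and 6. No separation of R from the controls can be read from these values. The higher share of macrophages in R therefore stood beside higher shares of cells that met the Sertoli and Leydig rules. Cells with at least 3 myoid markers, the contractile cells of the tubule wall, numbered 16 of 28224 in R, 15 of 10819 in UC and 11 of 11755 in VC-R, and no R library had a cell with 3 endothelial markers. The part that cell recovery played in it was not tested. The R libraries also had the most UMIs in total, with up to 98724982 in R 3 against 9673587 to 28341295 in the libraries of the other groups. Per kept cell they were not deeper, with medians of 3281.5, 3821 and 2803 UMIs in R against 2580 to 3954 in UC and VC-R. With every cell thinned to 1000 UMIs before the rule was applied, the difference was 0.702 percentage points (exact permutation p = 0.0238). The cell filters removed a larger part of the barcodes that met the gene rule in the controls (31 of 53 in VC-R and 19 of 49 in UC) than in R (27 of 284). With the rule on every barcode the R libraries ranged from 0.640 to 1.08% and the UC and VC-R libraries from 0.249 to 0.460%, a difference of 0.490 percentage points (exact permutation p = 0.0238).

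At the end of dosing the T libraries averaged 0.0114% ± 0.0198 (SD, n = 3), whereas the pooled UC and VC-T libraries averaged 0.245% ± 0.189 (SD, n = 6). The difference of -0.234 percentage points had p = 0.0952 in the exact permutation test (0.238 adjusted over the 5 tests). VC-T 1, a vehicle library with 0 macrophages, stood apart from VC-T 2 and VC-T 3 in other ways too. The paper treated this library as a technical outlier and excluded it from its differential expression. It was kept in the main tests of shares here. The UMIs of VC-T 1 outside the macrophages held 0.267% from 10 late spermatid genes, as in the T libraries (0.174 to 0.319%), against 10.2 to 12.8% in the other 11 libraries. Without VC-T 1 the difference was -0.283 percentage points with p = 0.0357, the smallest that 3 against 5 allow in the exact permutation test. The 2 macrophages of T, both in T 1, each had exactly 3 of the 5 genes, and both had a UMI of Csf1r. In T, 31 cells met the Leydig rule and 134 the Sertoli rule, which gives 6.45 macrophages per 100 Leydig cells and 1.49 per 100 Sertoli cells. VC-T had 58.5 per 100 Leydig cells and 3.97 per 100 Sertoli cells. These values pool the libraries of a group. By library, macrophages per 100 Sertoli cells were 3.175, 0 and 0 in T and 0, 4.60 and 2.96 in VC-T, which overlap. Per 100 Leydig cells they were 14.3 in T 1 and 0 in T 3, and T 2 had no Leydig cell. In VC-T they were 0, 85.7 and 31.6, where the 0 of VC-T 1 rests on 1 Leydig cell. With 2 cells in T, no level of any gene could be compared between T and its controls.

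The 5 genes of the rule were present to unequal extents, which describes the choice and tests nothing. C1qa was detected in 330 macrophages (98.5%), Lyz2, the lysozyme of macrophages, in 326 (97.3%), C1qb in 324 (96.7%), Pf4, a CXC chemokine, in 271 (80.9%) and Cd74, the invariant chain of MHC class II, in 108 (32.2%). The most frequent combination was Pf4, Lyz2, C1qa and C1qb without Cd74, in 182 cells, and all 5 genes were found in 75. Cells just inside the threshold, with exactly 3 genes, numbered 56, and cells just outside, with exactly 2, numbered 75. A further 95 barcodes had 3 or more of the genes but failed the cell filters, 27 in R, 31 in VC-R, 19 in UC, 12 in VC-T and 6 in T.

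C1qb differed from its neighbours outside the macrophages. In the 11 libraries with late spermatid RNA, 4.73 to 10.4% of the other cells had a UMI of C1qb, against at most 0.411% for C1qa and 0.306% for C1qc. In the 3 T libraries and VC-T 1, C1qb was found in 0.0516 to 0.188% of the other cells. Within the libraries the C1qb UMIs lay with the late spermatid genes. Among other cells with at least 5% of UMIs from those 10 genes, 19.5% in R 3 and 11.1% in UC 1 had a UMI of C1qb, while among cells with less than 1% from them 1.66% and 0.171% did. For C1qc the share among the former cells was 0.106% in R 3 and 0.434% in UC 1. The source of the C1qb UMIs in these cells was not tested. Leaving C1qb out of the rule, so that 3 of the other 4 genes were needed, kept 288 cells, 233 of them in R and 0 in T. The share then differed by 0.706 percentage points between R and its controls (exact permutation p = 0.0238).

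**Figure D2:**
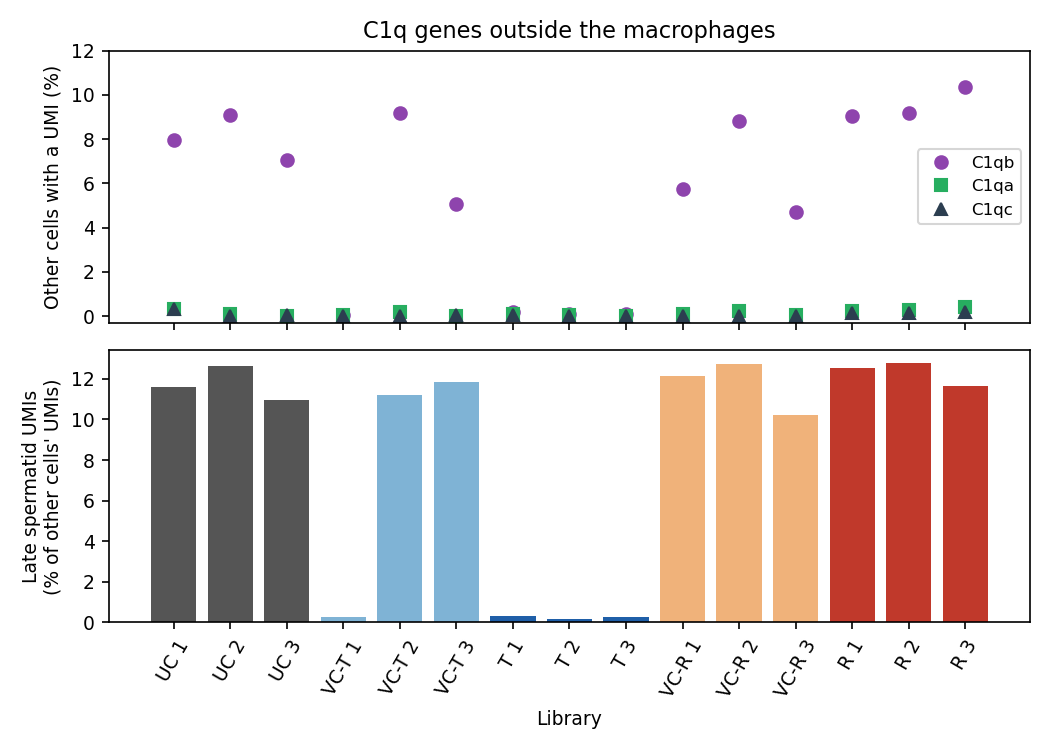
Upper panel, percent of the cells outside the macrophages with at least 1 UMI of C1qb, C1qa or C1qc in each library. Lower panel, UMIs of 10 late spermatid genes as percent of all UMIs of those cells, coloured by group; C1qb lies between 4.73 and 10.4% in the 11 libraries with late spermatid RNA and near 0 in the 4 without, and C1qa and C1qc stay near 0 in all 15.

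The transcripts that the rule did not use matched the name. Of 21 macrophage identity genes, all 21 had UMIs in these cells, 20 reached at least 2 times the level of the other cells, and 331 of the 335 cells had at least 3 of them. The exception was Aif1, at 883 CPM against 761 in the other cells, where CPM is the gene's UMIs scaled to a fixed total for all UMIs of the cells compared. In CPM over all macrophages, Csf1r stood at 512 against 0.209 in the other cells, Adgre1, which encodes the F4/80 antigen, at 155 against 0.901, and the lysosomal protein gene Cd68 at 311 against 0.463. Csf1r had UMIs in 248 of the 335 cells and in macrophages of 11 of the 12 libraries that had any. The exception was the single macrophage of VC-R 3. Tyrobp and Fcer1g are adaptors of activating receptors, and Tyrobp was detected in 299 cells at 1068 CPM. These values follow from choosing macrophages and are given without a test.

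The 15 genes with the largest ratio of CPM in macrophages to CPM in the other cells, among genes with at least 50 UMIs in macrophages of at least 10 libraries and with the 5 rule genes left out, were Ccl8, C1qc, Ms4a7, Wfdc17, Trem2, Tyrobp, Cd209g, Cybb, Ctss, Ccl24, Cbr2, Gm17268, P2ry6, Clec4n and Gpr34. Ratios ran from 2798 for Gpr34, a receptor for lysophosphatidylserine, to 8425 for Ccl8, a chemokine of the CC class. Trem2, a lipid-sensing receptor, stood at 484 CPM, Ctss, a lysosomal cysteine protease, at 603 CPM and Cybb, the catalytic subunit of the phagocyte oxidase, at 199 CPM. Ccl24, Cd209g and Clec4n (a C-type lectin receptor) were detected in 106, 131 and 171 of the 335 cells. All 15 genes were higher in macrophages than in the other cells of the same library in each library whose macrophages had a UMI of the gene.

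The cells carried the genes of resident macrophages of the interstitium, and genes of the monocyte list were mixed. All 15 genes of the resident list exceeded the other cells by at least 10 times in CPM. Mrc1 stood at 1023 CPM (282 of 335 cells), the transglutaminase gene F13a1 at 1234 CPM (276 cells) and Folr2 at 415 CPM (209 cells). Cd163, the haemoglobin scavenger receptor, was found in 53 cells at 65.1 CPM. Lyve1, a hyaluronan receptor of macrophages beside vessels in other organs, had 3 UMIs, all in 1 cell. Of the 11 monocyte genes, 9 had UMIs and 5 reached at least 2 times the level of the other cells. S100a4, a calcium-binding protein gene, was detected in 54 macrophages at 478 times the level of the other cells, and S100a6 in 72 at 38.2 times. The chemokine receptor gene Ccr2 had 4 UMIs in 4 cells, at 3.14 CPM against 5.13 in the other cells. Ly6c2, a surface marker of classical monocytes, had none, and 0 of 335 cells allows up to 0.896% of cells with a UMI.

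Marker lists of other immune cells were mostly low, with single genes as exceptions. No macrophage had 3 or more genes of the T and NK cell list, the B and plasma cell list, the dendritic cell, neutrophil or mast cell lists or the red cell and platelet list. Of the 13 T and NK cell genes, 5 had any UMI, and of the 8 neutrophil genes 3 did. Their summed levels over the 9 libraries with at least 5 macrophages ran from 0 to 127 CPM for T and NK cells and from 0 to 49.9 CPM for neutrophils. Of the 8 B and plasma cell genes 4 had UMIs, with sums of 27.2 to 249 CPM. Nearly all came from Ighm, the heavy chain of IgM, found in 113 cells at 1583 times the level of the other cells, while the B cell receptor gene Cd79a and the light chain gene Igkc had none. Of the 8 dendritic cell genes 6 had UMIs, with sums of 49.9 to 229 CPM. Itgae gave 109 CPM, against 212 in the other cells, and Siglech, a lectin of plasmacytoid dendritic cells, was found in 28 macrophages, while Xcr1 and Clec9a had none. Of the 6 mast cell genes 2 had UMIs and of the 8 red cell and platelet genes 5, in 7 and 8 cells.

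RNA of germ cells was present in every macrophage. Prm1, which encodes a protamine that packs sperm DNA, had UMIs in all 335 cells, at 17252 CPM against 30295 CPM in the other cells. The 10 late spermatid genes took 1.24 and 2.03% of macrophage UMIs in VC-T 3 and VC-T 2, 1.30 and 4.90% in VC-R 1 and VC-R 2, 4.20, 8.38 and 3.89% in R 1, R 2 and R 3, and 13.1 and 10.9% in UC 1 and UC 3. Averaged over libraries R had 5.49% ± 2.51 (SD, n = 3) while the 4 UC and VC-R libraries had 7.56% ± 5.42 (SD), and the difference of -2.07 percentage points was smaller than this spread (exact permutation p = 0.571). The smallest p that 3 against 4 libraries allow is 0.0571. In T 1, where late spermatid RNA was scarce in all cells, the 2 macrophages held 0.129%.

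Part of the selected cells held little macrophage RNA. In 48 of the 335 the identity genes (without Aif1, which also had UMIs in other cells) made up less than 0.5% of UMIs. These 48 had a median of 7644.5 UMIs and a median of 12.9% of UMIs from late spermatid genes, whereas the other 287 had 2085 UMIs and 1.83%. At least 3 spermatocyte markers were present in 19 of the 48 and 8 of the 287, and at least 3 Sertoli markers in 16 and 8. They numbered 31 of 257 in R and 10 of 15 in UC 1, and the single macrophage of VC-R 3 was one of them. Among the 5.4% of cells with the highest doublet scores in their library were 23 of the 48 and 24 of the 287. None of the 10 in UC 1 was. Without these 48 the share of macrophages differed by 0.695 percentage points between R and its controls (exact permutation p = 0.0238).

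**Figure D3:**
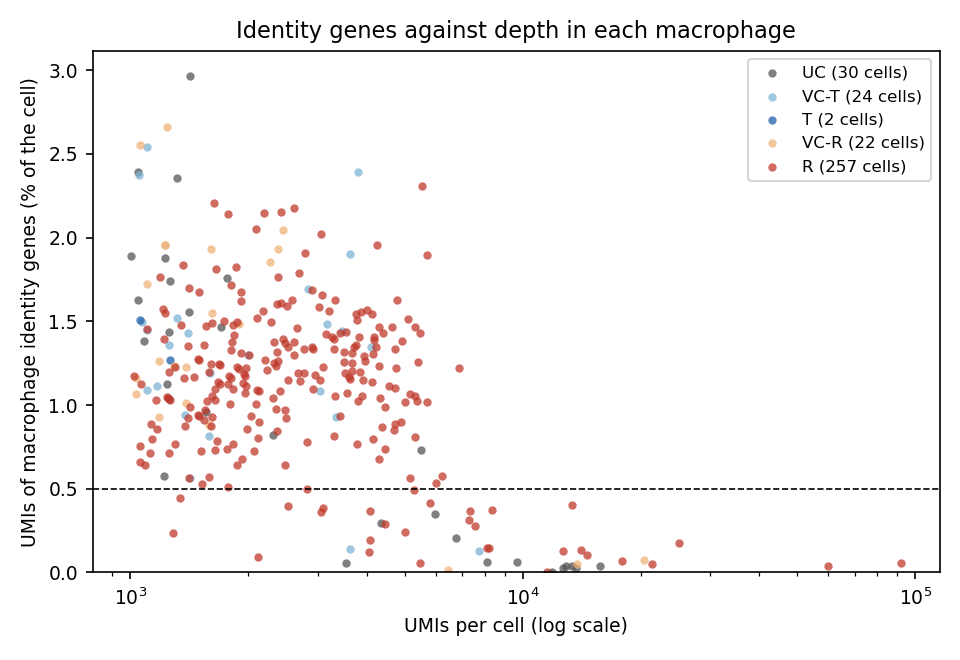
Each point is 1 of the 335 macrophages, with its UMIs on the x axis (log scale) and the percent of them from macrophage identity genes (without Aif1) on the y axis, coloured by group. The dashed line marks 0.5%; 48 cells lie under it, among them the deepest cells, and 287 lie at or over it.

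Macrophages had a median of 2366 UMIs (1005 to 92019). By library the median was 1909, 1977 and 3880 in R 1, R 2 and R 3, 1240 and 1610 in VC-R 1 and VC-R 2, 5976 and 1265 in UC 1 and UC 3, and 2414.5 and 1100.5 in VC-T 2 and VC-T 3. In R the medians averaged 2589 ± 1119 (SD, n = 3) while those of the 4 UC and VC-R libraries averaged 2523 ± 2308 (SD), with an exact permutation p of 0.914. UC 1, with its 10 deep cells of little macrophage RNA, set the upper end of the control range. With the 48 such cells left out, macrophages of R were deeper by 1105 UMIs (p = 0.0571 in the exact permutation test, the smallest possible).

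MHC class II divided the macrophages. H2-Aa or H2-Eb1, the genes of an alpha and a beta chain, were detected in 67 of the 335 (20%), against 0.117 to 1.03% of the other cells by library. By library, 21 of 63 macrophages had such a UMI in R 1, 23 of 104 in R 2, 10 of 90 in R 3, 9 of 18 in VC-T 2, 3 of 11 in UC 3 and 1 of 10 in VC-R 2. None had one in UC 1, VC-T 3 and VC-R 1, with 15, 6 and 11 macrophages. When H2-Ab1 was counted as well, 108 macrophages had a UMI, but 27.8 to 43.8% of the other cells had one too, since H2-Ab1 stood at 116 CPM in those cells and at 209 CPM in macrophages. With all 3 genes R had 33.3% ± 6.51 (SD, n = 3) positive macrophages, 6.36 percentage points above the mean of the 4 UC and VC-R libraries, whose SD was 9.21 (exact permutation p = 0.343), which is at the level of the background. With H2-Aa or H2-Eb1 only, R was higher by 12.9 percentage points (p = 0.229 in the exact permutation test). Of the 11 genes of antigen presentation by MHC class II, 4 passed the filter on low counts in the comparison of levels described below, and 0 had an unadjusted p under 0.05 against UC or VC-R. All 4 had positive log2 fold changes in R, with a median of 2.52 against VC-R and 0.74 against UC. Every R library lay above every VC-R library in 3 of the 4, and above every UC library in 0. With so few fitted control libraries, the p-values cannot show that levels were equal.

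A group of 40 macrophages with at least 3 UMIs of H2-Aa and H2-Eb1 together was set apart after the values had been seen, so it is described without a test. It held 9 of the 18 macrophages of VC-T 2, 11 of R 1, 15 of R 2, 2 of R 3 and 3 of UC 3. Cd74 stood at 6196 CPM in these cells and at 135 CPM in the other 295, and H2-DMb1, a chaperone of peptide loading, at 165 and 12.7 CPM. Cd74 is a rule gene, as are Lyz2 (2988 and 3947 CPM, in 80 and 99.7% of cells), Pf4 (in 57.5 and 84.1% of cells) and C1qa, so their levels depend on the choice of cells. Csf1r was at 507 and 512 CPM and Tyrobp at 1092 and 1066 CPM over all libraries. Within libraries Csf1r was lower in the MHC class II high cells, at 731 against 1055 CPM in VC-T 2, 415 against 619 CPM in R 1 and 420 against 559 CPM in R 2. Several genes of the resident list were lower in the MHC class II high cells over all libraries. F13a1 was at 551 CPM against 1287, Folr2 at 254 against 427, Cbr2 at 320 against 548 and Stab1, a scavenger receptor, at 243 against 382. Within each of the 3 libraries with at least 5 such cells, Mrc1, Folr2 and F13a1 kept this order. For F13a1 the values were 598 and 1476 CPM in VC-T 2, 415 and 1360 CPM in R 1 and 420 and 1288 CPM in R 2. Cd14, a coreceptor for lipopolysaccharide, was at 298 CPM against 54.9, but in R 2 it was at 56.0 against 61.7 CPM. R 2, with 15 such cells, also had Stab1 at 336 CPM in both groups and Cd163 at 83.99 against 78.8 CPM. The dendritic cell genes Flt3 and Zbtb46 had no UMI in the 40 cells, and Ccr2 had 1. The 40 cells had a median of 1592.5 UMIs and the other 295 a median of 2483.

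**Figure D4:**
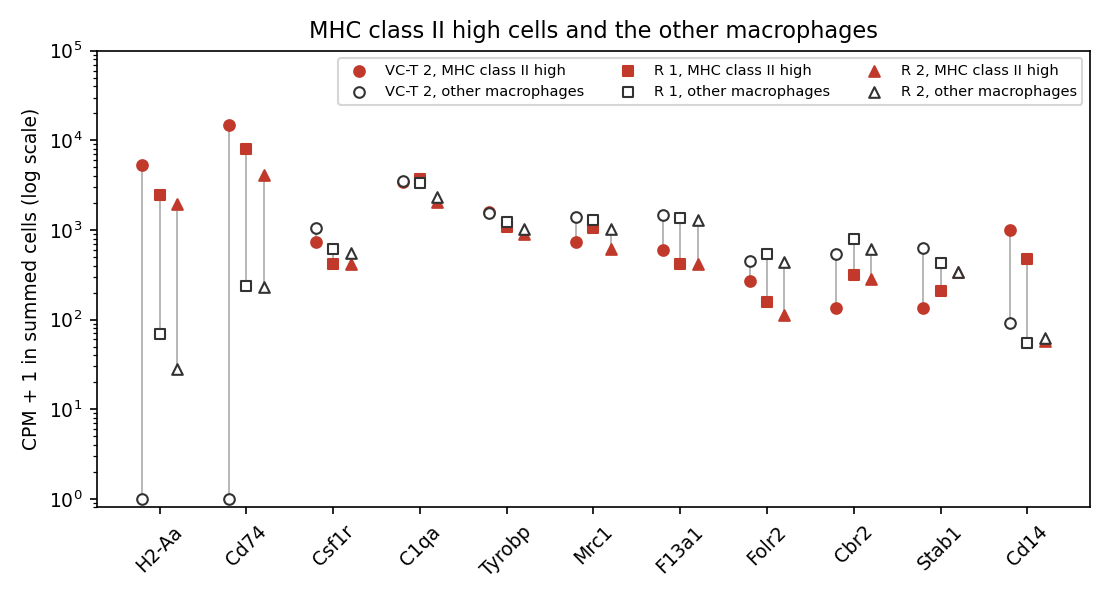
CPM plus 1 (log scale) of 11 genes in the summed UMIs of MHC class II high macrophages (filled) and of the other macrophages of the same library (open), in VC-T 2, R 1 and R 2. Tyrobp points lie close together, while F13a1, Folr2 and Cbr2 are lower in the filled points of all 3 libraries.

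Levels within macrophages were compared between groups on UMIs summed per library, in the 9 libraries with at least 5 macrophages, which were R 1 to R 3, VC-R 1 and 2, UC 1 and 3 and VC-T 2 and 3. Of 1359 genes tested, 0 (0%) were called changed in R against UC and 0 (0%) in R against VC-R by edgeR's quasi-likelihood test, where a call needed a log2 fold change beyond 1 in size together with a Benjamini-Hochberg adjusted p under 0.05. At an unadjusted p under 0.05 there were 224 genes (16.5%) against UC, of which 131 were higher in R (9.64% of all tested) and 93 lower (6.84%). Against VC-R there were 152 (11.2%), 88 of them higher (6.48%) and 64 lower (4.71%). DESeq2 called 0 against UC and 2 against VC-R. Against the mean of UC, VC-R and VC-T, a comparison added after the data were seen, edgeR called 0 (0%) as well, with 120 (8.83%) at an unadjusted p under 0.05, 106 higher (7.8%) and 14 lower (1.03%). Both comparisons use the same R libraries.

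The genes that came closest in R against UC were mostly those of macrophages. Among 389 genes with at least 2 times the CPM in macrophages as in other cells, 125 were higher in R than in UC at an unadjusted p under 0.05 and 0 were lower. Their median log2 fold change was 0.97, against -0.01 over all genes tested. These genes were chosen on UMIs summed over all macrophages, 257 of 335 of them from R, so levels in R weigh on the choice. Fitted without the other genes, the 389 had a median of -0.07 against UC, with 51 at an unadjusted p under 0.05 in either direction. In the fit of all genes, the 389 gave 4 higher and 2 lower against VC-R, with a median of 0.04. Of the 15 identity genes tested, 8 were higher at an unadjusted p under 0.05 in R against UC and 0 in R against VC-R. Csf1r stood at 595, 543 and 532 CPM in the R libraries, at 499 and 459 CPM in VC-R, at 954 and 993 CPM in VC-T, and at 45.4 and 375 CPM in UC 1 and UC 3. The low value was that of UC 1, in which 10 of 15 cells held under 0.5% of identity UMIs. Its log2 fold change was 1.74 ± 0.64 (SE) against UC and 0.29 ± 0.58 (SE) against VC-R, with edgeR adjusted p of 0.201 and 0.875. Mrc1 differed by 1.73 ± 0.48 (SE) on the log2 scale against UC and by 0.24 ± 0.45 (SE) against VC-R (edgeR adjusted p = 0.156 and 0.861). Spi1 differed by 2.42 against UC and by -0.37 against VC-R. Apoe, the lipid carrier, differed by 1.18 ± 0.60 (SE) against UC and by 0.00 ± 0.57 (SE) against VC-R.

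Germ cell genes were also among those with an unadjusted p under 0.05. Of the 10 late spermatid genes, all tested, 5 were higher in R than in VC-R at an unadjusted p under 0.05 and 0 lower, and 0 were higher and 2 lower than in UC. Smcp, a mitochondrial capsule gene of sperm, had a log2 fold change of 2.17 ± 0.50 (SE) in R against VC-R (edgeR adjusted p = 0.243). DESeq2 called it and Tex101 (adjusted p = 0.00772 and 0.0190), its only calls in R against VC-R. Tex101 and Hmgb2, expressed in spermatocytes, differed by -3.82 ± 0.77 (SE) and -2.49 ± 0.60 (SE) in the same comparison, at an edgeR adjusted p of 0.243 each. These UMIs came in cells chosen as macrophages, and how many were free germ cell RNA in the droplets was not tested. Of the 5 Leydig cell genes 4 were tested, and their median log2 fold change was 6.06 in R against VC-R and -1.65 against UC, with 0 at an unadjusted p under 0.05 in either.

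Ccl8 had the most uneven level of the leading genes. It stood at 4600, 736 and 938 CPM in R 1, R 2 and R 3 and at 1410 and 1655 CPM in VC-T 2 and VC-T 3. In VC-R 1 and VC-R 2 it was at 200 and 28.7 CPM, and in UC 1 and UC 3 at 18.1 and 313 CPM. Every R library lay above the VC-R and UC libraries, while R 2 and R 3 lay below both VC-T libraries. The log2 fold change was 4.11 ± 1.05 (SE) against UC and 4.49 ± 1.17 (SE) against VC-R, with edgeR adjusted p of 0.156 and 0.243, so it was not called. It was called in both comparisons when genes of low counts were kept, and with the replicate number as a block (edgeR adjusted p = 0.0371 against UC and 0.0212 against VC-R). In neither comparison was it called by DESeq2, with at least 4 of 5 rule genes, or without top doublet scores. Leaving out UC 1 or any R library gave no call either, nor did fitting only the 389 genes higher in macrophages. Without UC 3 the log2 fold change of Ccl8 was 6.53 against UC and 4.67 against VC-R. UC then rests on UC 1 alone, in which 10 of 15 cells held under 0.5% of identity UMIs. Without VC-R 1 the log2 fold change was 4.11 against UC. All R libraries lay above all UC libraries in 19.5% of the 1359 genes, and above all VC-R libraries in 18.4%. They lay below all UC libraries in 16.7% and below all VC-R libraries in 23%. Above all libraries of the 3 control groups there was 1 gene (0.0736%), Gm15517, and below them there were 7 (0.515%). The transcripts lay in 188 of the 335 cells, in 46 of 63 in R 1 (up to 123 UMIs in a cell), 59 of 104 in R 2, 62 of 90 in R 3, 7 of 18 in VC-T 2, 5 of 6 in VC-T 3, 3 of 11 in VC-R 1, 1 of 10 in VC-R 2, 2 of 15 in UC 1 and 2 of 11 in UC 3. In UC 2, with 4 macrophages and outside the fit, 1 cell held 5 UMIs. The 5 richest cells of R 1 gave 43.9% of its Ccl8 UMIs. Ccl12, the neighbouring chemokine gene, had 83 UMIs in 40 cells. R held 79 of these UMIs and 257 of the 335 macrophages. Cells with a Ccl12 UMI were 15 of 63 in R 1, 10 of 104 in R 2 and 11 of 90 in R 3. Outside R they were 1 of 18 in VC-T 2, 1 of 6 in VC-T 3, 1 of 10 in VC-R 2 and 1 of 4 in UC 2. Ccl12 lies at chr11:82101845-82103400 and Ccl8 at chr11:82115185-82116799 (GRCm38).

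**Figure D5:**
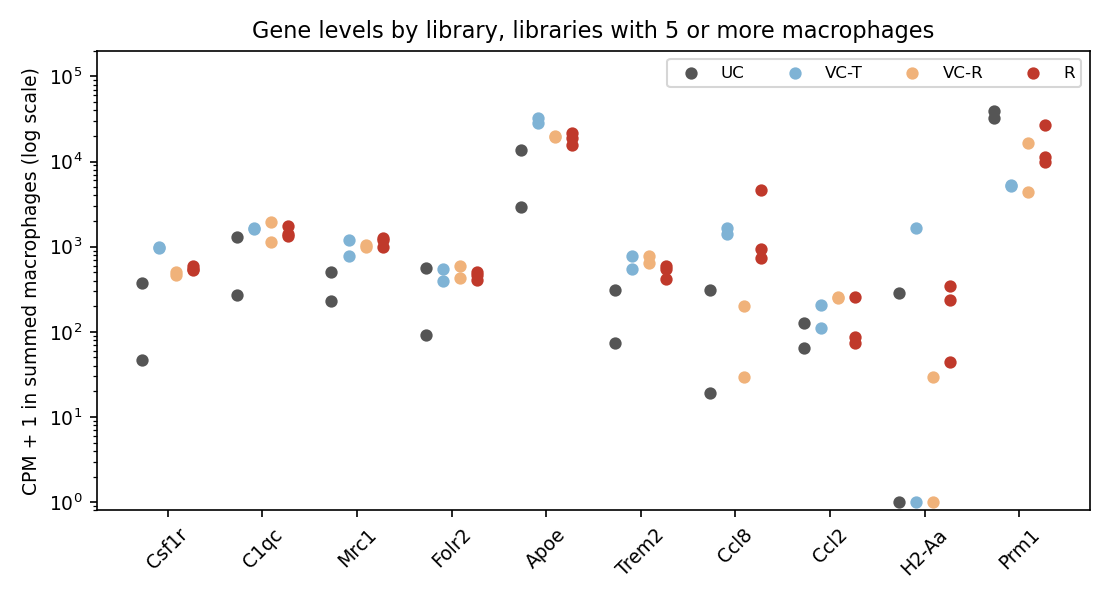
CPM plus 1 (log scale) of 10 genes in the summed UMIs of macrophages, 1 point for each of the 9 libraries with at least 5 macrophages, coloured by group. The UC libraries lie lowest for Csf1r, Mrc1 and Trem2 and highest for Prm1, and Ccl8 in R 1 to R 3 (736 to 4600 CPM) lies above VC-R and UC and overlaps VC-T.

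Few other chemokine and cytokine genes had counts high enough to be tested. Of 16 cytokine and growth factor genes only Igf1 passed the filter on low counts, without an unadjusted p under 0.05. Its log2 fold change was 0.99 against UC and -0.57 against VC-R. Every R library lay below every VC-R library for Igf1, as in 23% of all genes tested. Of 16 chemokine genes 3 passed the filter on low counts, of which 1 (Ccl8) was higher at an unadjusted p under 0.05 in each comparison. Ccl2, a monocyte attractant, ranged from 73.3 to 253 CPM in R, from 250 to 258 CPM in VC-R and from 63.5 to 125 CPM in UC. Ccl3 and Ccl4 had 54 and 53 UMIs and Cxcl2 had 3. Tnf had 85 UMIs in 53 cells, Il1b 10 UMIs in 8 cells and Il10 8 UMIs in 8 cells. Ch25h, which makes the oxysterol 25-hydroxycholesterol, had 6 UMIs. The interferon-induced gene Ifi27l2a, the only 1 of its list of 16 tested, stood at 281 to 686 CPM in R, 81.7 to 93.8 CPM in UC, 172.1 to 199.8 CPM in VC-R and 441.5 to 622.1 CPM in VC-T, so that R overlapped VC-T. It had a log2 fold change of 2.44 ± 0.56 (SE) against UC and 1.45 ± 0.57 (SE) against VC-R (edgeR adjusted p = 0.156 and 0.350).

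Lysosome, uptake and lipid genes were counted in the same way. Of 20 lysosome genes 16 were tested, and 7 were higher against UC at an unadjusted p under 0.05, where 9.64% of all genes were, and 0 against VC-R. Of the 20, 19 had at least 2 times the CPM in macrophages, and 125 of the 389 tested genes of that kind were higher against UC. Of the phagocytosis and of the lipid list 4 genes each were tested, of which 3 each were higher against UC and 0 against VC-R. The UC values include UC 1 with its 10 cells of little macrophage RNA. Ctsd, an aspartic protease, had its highest levels in VC-T, at 2219 and 2980 CPM, against 601 to 790 CPM in R and 949 and 1205 CPM in VC-R. Apoe stood at 28387 and 32447 CPM in VC-T, 15527 to 21619 CPM in R and 19626 and 19760 CPM in VC-R. Mertk and Axl, receptors for dying cells, had 117 and 62 UMIs. Hmox1, the heme oxygenase, and Slc40a1, the iron exporter, had 122 and 265 UMIs, and none of the 5 iron genes tested passed even an unadjusted p of 0.05.

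Transcripts of proteins that JQ1 binds were present at low counts. Brd2 had 144 UMIs in macrophages and Brd3 had 99, and their CPM in macrophages was 0.969 and 0.651 times that in the other cells. Hexim1 and Myc, whose transcripts are known to change under BET inhibition, had 13 and 3 UMIs. None of the 12 genes of this list passed the filter on low counts, so no change could be tested. Fos and Jun, which rise when tissue is dissociated, had levels of 363 to 866 and 534 to 788 CPM in R. In VC-R they had 599 to 660 and 488 to 899 CPM, so the groups overlapped. Irf8, a transcription factor of the macrophage lineage, had 94 UMIs.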

How the data were processed

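Single-cell libraries of the 10x Genomics 3′ kind were made from 1 testis of each mouse. The deposited files hold UMI counts per gene and cell barcode, made by the authors with Cell Ranger on mm10. The labels and the paper name version 3.0.0 and the file headers 7.0.0, and whether intronic reads were counted is not given in the sources used here. The authors' later removal of ambient RNA and doublets is not in these counts, and no correction for ambient RNA was made here.

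All 101610 barcodes were read, and 9673587 to 98724982 UMIs per library were counted over 32285 genes. Barcodes were used if their mitochondrial share was below 30% and they had 1000 or more UMIs from 500 or more genes. Doublets were kept, and were left out as an alternative by removing the 5.4% of cells per library with the highest Scrublet score (scanpy 1.11.5). Of 75747 distinct kept barcodes, 745 occurred in more than 1 library. These included 10 macrophage barcodes, and no barcode was a macrophage in 2 libraries. Shares have exact 95% intervals, and a count of 0 allows 3 counts. Libraries were the replicates. Shares, depths and percentages went into two-sided exact permutation tests (scipy 1.17.1) with Benjamini-Hochberg adjustment over 5 tests. UMIs were summed over the macrophages of each library with at least 5 of them, filtered with filterByExpr, scaled by TMM and tested with the quasi-likelihood test of edgeR 4.0.16 in R 4.3.3, with groups as the only term. A call needed a log2 fold change beyond 1 in size together with an adjusted p under 0.05. DESeq2 1.42.0 was an alternative. The fits were tested on simulated data. VC-T 1 had no macrophages and entered no fit, and T had too few for any.

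The macrophages, the gene lists and the tests were chosen with earlier results of these data known. Named genes were the 5 rule genes, a fixed set of macrophage, cytokine, BET and spermatid genes, the 15 leading genes and any called gene. Ifi27l2a, Igf1, Smcp, Tex101, Hmgb2, Fcer1g, Stab1, Cd14, Ccl12, Flt3, Zbtb46, S100a4, S100a6, Ighm, Siglech, Itgae, Xcr1, Clec9a, Cd79a, Igkc, H2-DMb1, Aif1 and F13a1 were added after their values were seen. The cell group high in MHC class II and the limit of 0.5% identity UMIs were also set after the data were seen. Of 366 list genes 2 are not in the files. Start regions are those of RefSeq (GRCm38.p6). Some genes of the lists are not reported here.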

Additional observations from a re-analysis of the deposited data

Results flagged for a closer look

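The share of macrophages among kept cells changed differently in R and T against the vehicle group of the same time. R exceeded VC-R by 0.798 percentage points and T lay below VC-T by a difference of -0.201 percentage points, and the difference between these effects was 0.999 percentage points. In an exact permutation test that permuted labels within each of the 2 contrasts (400 regroupings, smallest possible p = 0.005), p was 0.02. VC-T 1, which the paper treated as a technical outlier, had 0 macrophages and was kept in this test. Cells that met the Sertoli and Leydig rules took higher shares in each R library than in any VC-R library. The part of cell recovery in this difference was not tested.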

How the results depend on the processing

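The higher share in R kept its direction under all 18 alternatives tried, and its exact permutation p stayed at 0.0238 or 0.0357 in 13. In the exact permutation test it missed 0.05 against same-time vehicle only (0.798 percentage points, p = 0.1), with the replicate block (0.745, p = 0.25) and when any R library was left out (p = 0.0714, the smallest possible there). Leaving out 1 library gave 0.557 to 0.896. The smallest difference was 0.490 with the rule on every barcode. The lower share in T kept its direction in all 18 and gave -0.283 to -0.188 without 1 library, with p = 0.0357 without VC-T 1 and 0.0952 to 0.4 in the other exact permutation tests. Median UMIs gave -579.75 to 1217 without 1 library, reversing without R 3 (-580), VC-R 1 (-362), VC-R 2 (-238) or UC 3 (-353). The late spermatid percentage, -4.15 to -0.225 without 1 library, reversed with at least 4 of 5 rule genes (0.872), with cells of at least 0.5% identity UMIs (1.04) and against same-time vehicle only (2.39). MHC class II was higher in R in all 14 alternatives, by 3.19 to 9.70 percentage points without 1 library, 15.4 with at least 4 of 5 rule genes and 17.8 with cells of at least 0.5% identity UMIs (exact permutation p = 0.0571 in both, the smallest possible). The cause of these changes was not tested.

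Genes called in R against UC were 4 with no filter, 1 (Ccl8) with the replicate block and 21 without top doublet scores, of which 19 were lower (Prm1, Prm2, Tnp1 and Tnp2 among them). Without 1 library they were 0 to 10, with 10 without UC 3, 3 without VC-R 1 and 2 without VC-R 2. In R against VC-R they were 2 with DESeq2, 4 with no filter, 3 with the replicate block (Ccl8, Smcp and Tex101) and 0 to 2 without 1 library (2 without UC 3). Against the 3 control groups they were 29 with no filter, 1 with the replicate block and 0 to 1 without 1 library. Replicate numbers mark no shared litter or day in the labels. Same-number libraries had correlations of deviations of -0.104 to 0.283 (9 pairs), and 7 of 9 libraries correlated best with their own number. Pairs of different number gave -0.283 to 0.243 (21 pairs). In groups with 2 fitted libraries the deviations are exact opposites, so these values are not independent. They cannot decide whether replicate numbers mark a pairing. Comparisons of levels with T could not be made, because no T library held 5 macrophages, and depth per library limits genes of few UMIs.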
